A study of Mus musculus with 7 samples.

Results

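The genes described here mark the mural cells of heart vessels, and they were followed across 7 RNA libraries from mouse left ventricle. The 10 members were named by symbol, and their Ensembl identifiers were looked up in the deposited tables, which list 22027 genes. All 10 were listed, and all 10 passed the filter on low counts that left 12674 genes for testing. They fall into 6 genes of contractile smooth muscle (Acta2, Myh11, Tagln, Cnn1, Smtn and Actg2) and 4 genes of pericytes (Rgs5, Pdgfrb, Cspg4 and Notch3). The libraries came from C57BL/6J mice aged 12 months, and all were labelled with a telomerase-deficient background called G3, so no library with intact telomerase was compared. The label G3 alone was given to 4 libraries and the label G3 PGC1aOE to 3, the same background with PGC1alpha, a transcriptional coactivator of mitochondrial genes, overexpressed. What drives the overexpression, and in which cells, is not given in the sources used here. Each sample also carries a code whose text reads G2 in 3 libraries (G3 PGC1aOE 1, G3 1 and G3 3) and G3 in the other 4, and whose number is 67 or lower in 4 libraries and 81 or higher in 3 (G3 4, G3 PGC1aOE 2 and G3 PGC1aOE 3). Before that text stand the letters C in G3 1 and G3 2, none in G3 3, P in G3 4 and PC in all 3 libraries labelled G3 PGC1aOE, so that G3 4 shares the letter P with the other group. What the code stands for is nowhere explained, and it is not a batch that the labels name. Its numbers are 40, 50 and 55 where the text reads G2, and 67, 81, 82 and 83 where it reads G3. A split by code text can therefore not be told apart from a split into lower and higher numbers.

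Total counts ran from 10106705 to 16056740 per library. Levels per library are given as CPM, that is, counts scaled by library size as edgeR defines it. Ppargc1a, the gene of PGC1alpha, had a mean of 68.3 CPM (SD 30.8, n = 3) in the libraries labelled G3 PGC1aOE and of 89.1 CPM (SD 25.4, n = 4) in G3, which goes against the label (log2 fold change −0.38, edgeR adjusted p = 0.847). Every direction below therefore rests on the label alone. Nothing in the labels says whether the libraries come from separate animals, and p-values reflect no more than the spread among these libraries.

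Smooth muscle cells surround arteries and larger veins and set vessel tone. Their contraction runs on a smooth muscle myosin pulling on alpha and gamma smooth muscle actin, and transcription of the contractile genes is driven by serum response factor with its partner myocardin through a DNA element called the CArG box. Pericytes sit on capillaries, share a basement membrane with endothelium, and are held there by PDGF-B and Notch signals from endothelial cells. In a healthy ventricle pericytes are abundant along the dense capillary bed, while contractile smooth muscle is limited to the walls of coronary vessels.

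The stretches upstream of Acta2 and Rgs5 are shown because Acta2 varied widely between libraries and Rgs5 varied least of the 10 members. Both come from RefSeq on GRCm38.p6, matched by symbol, which differs from the mm9 build of the counts, and each holds the 250 bases before the gene's annotated start. Capitals mark the CArG box, searched with at most 1 G or C among the 6 letters of its A and T core, a form that reads alike on both strands.
Acta2 (chr19:34255374-34255623, minus strand): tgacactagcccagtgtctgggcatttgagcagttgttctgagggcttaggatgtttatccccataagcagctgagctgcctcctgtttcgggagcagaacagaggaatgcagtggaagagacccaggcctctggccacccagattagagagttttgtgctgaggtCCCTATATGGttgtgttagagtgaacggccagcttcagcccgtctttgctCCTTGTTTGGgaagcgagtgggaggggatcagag
Rgs5 (chr1:169655251-169655500, plus strand): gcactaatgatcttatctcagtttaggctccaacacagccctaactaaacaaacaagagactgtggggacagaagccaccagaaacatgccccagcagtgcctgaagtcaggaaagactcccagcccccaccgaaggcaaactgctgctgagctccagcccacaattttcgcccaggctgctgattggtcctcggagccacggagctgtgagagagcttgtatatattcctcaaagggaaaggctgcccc
Acta2 held 2 matches, CCCTATATGG at 84 to 75 bases and CCTTGTTTGG at 34 to 25 bases before the start, and Rgs5 held 0. Of all 32851 windows of this length, 8.59% held at least 1 match and 0.670% held at least 2. Entries were found for 6 of the 10 members, and the other 4 of these, Cnn1, Smtn, Cspg4 and Notch3, held 0 matches. Myh11, Tagln, Actg2 and Pdgfrb had no entry. A match is a string of letters and says nothing of binding in these hearts.

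Levels can be set against each other only per length, in FPKM as deposited by the authors. Rgs5, a regulator that shortens G protein signalling, had the highest median, at 138 FPKM over the 7 libraries (101 to 200). Smtn, which encodes the actin-binding protein smoothelin, followed at 59.3 FPKM (30.9 to 92.2), then Acta2, alpha smooth muscle actin, at 41.6 FPKM (14.3 to 142). Tagln, which encodes the actin-bundling protein transgelin, had a median of 22.7 FPKM (11.3 to 109). Lower still lay Pdgfrb at 8.32 FPKM, Notch3 at 5.15 FPKM and Myh11 at 4.72 FPKM. Cspg4 had a median of 1.97 FPKM, Cnn1 of 0.919 FPKM and Actg2 of 0.649 FPKM. Of the neighbours in this order, Rgs5 and Smtn, Tagln and Pdgfrb, and Myh11 and Cspg4 did not overlap in their ranges, and the other 6 neighbouring pairs did. The order was not the same in every library: Acta2 stood above Rgs5 in G3 PGC1aOE 2, at 142 against 129 FPKM, and below it in the other 6.

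The contractile genes varied widely from library to library. Acta2 (ENSMUSG00000035783) measured 40.3, 119, 74.5 and 76.8 CPM in G3 1 to 4, beside 22.9, 275 and 201 CPM in G3 PGC1aOE 1 to 3. The libraries labelled G3 PGC1aOE thus held both the lowest and the 2 highest values, and all of G3 lay between them. The highest library stood 12.0-fold above the lowest. Tagln (ENSMUSG00000032085) measured 22.7, 75.4, 18.0 and 38.2 CPM in G3 1 to 4, beside 18.7, 187 and 109 CPM in G3 PGC1aOE 1 to 3, a range of 10.4-fold with the same 2 libraries on top. Myh11 (ENSMUSG00000018830), the heavy chain of smooth muscle myosin and the most restricted of these markers, measured 24.8, 62.2, 25.4 and 30.4 CPM in G3 1 to 4. In G3 PGC1aOE 1 to 3 it measured 28.1, 98.6 and 43.3 CPM. G3 2 was the highest G3 library for Acta2, Tagln and Myh11, and the groups overlapped for all 3 genes.

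Cnn1 and Actg2 rested on few reads. Cnn1 (ENSMUSG00000001349), which encodes calponin, an inhibitor of the myosin ATPase that binds actin, had 22, 67, 12 and 18 counts in G3 1 to 4, beside 3, 187 and 151 counts in G3 PGC1aOE 1 to 3. Actg2 (ENSMUSG00000059430), gamma smooth muscle actin and best known from gut and bladder, had 4, 21, 4 and 9 counts in G3 1 to 4, beside 3, 22 and 19 counts in G3 PGC1aOE 1 to 3. Both were lowest in G3 PGC1aOE 1, and their 3 highest counts were in G3 2, G3 PGC1aOE 2 and G3 PGC1aOE 3, the libraries that also led for Acta2, Tagln and Myh11. Smtn (ENSMUSG00000020439) measured 58.2, 107, 152 and 152 CPM in G3 1 to 4, beside 95.2, 204 and 141 CPM in G3 PGC1aOE 1 to 3. It did not follow the other contractile genes in every library: G3 3, among the lowest for Tagln, Myh11 and Cnn1, was among the highest for Smtn.

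**Figure D1:**
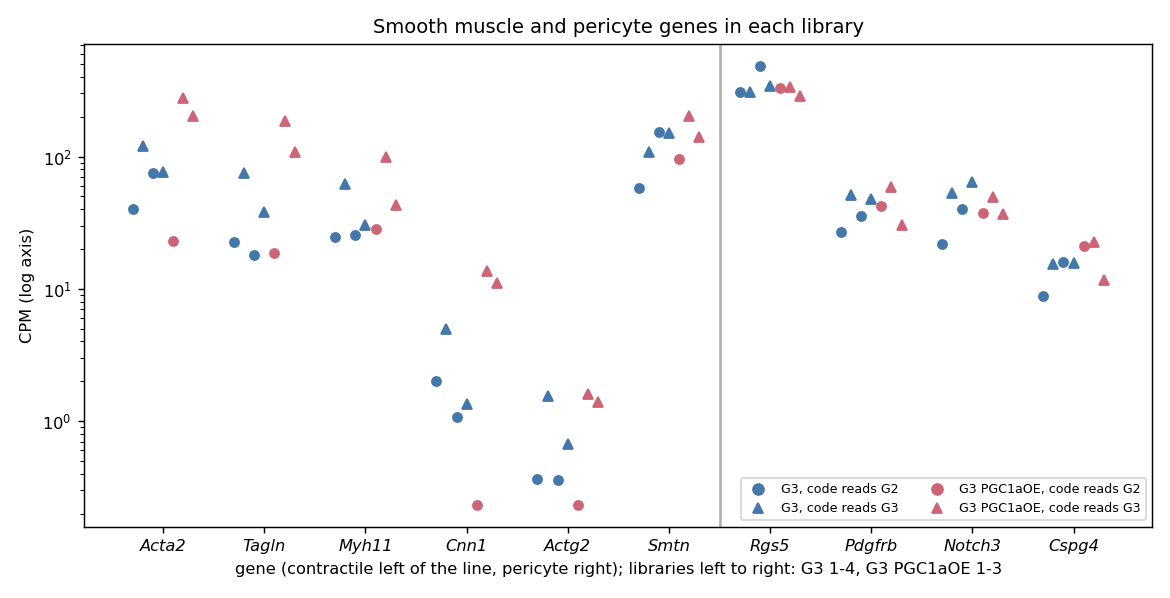
CPM of each member in each of the 7 libraries on a log axis, with colour for the labelled group and shape for the text in the sample code. The contractile genes spread over up to more than 10-fold, with G3 PGC1aOE 2 at 275 CPM and G3 PGC1aOE 1 at 22.9 CPM for Acta2, while Rgs5 stayed between 287 and 484 CPM.

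The pericyte genes kept closer to their own means. Rgs5 (ENSMUSG00000026678) measured 307, 306, 484 and 339 CPM in G3 1 to 4, beside 328, 337 and 287 CPM in G3 PGC1aOE 1 to 3, a range of 1.69-fold with G3 3 standing above the others. Pdgfrb (ENSMUSG00000024620), the receptor through which PDGF-B recruits pericytes, measured 27.1, 51.2, 35.8 and 47.8 CPM in G3 1 to 4, beside 42.2, 59.2 and 30.3 CPM in G3 PGC1aOE 1 to 3, a range of 2.19-fold. Notch3 (ENSMUSG00000038146), the Notch receptor of mural cells, ranged 2.91-fold, from 22.0 CPM in G3 1 to 64.0 CPM in G3 4. Cspg4 (ENSMUSG00000032911), which encodes the NG2 proteoglycan, ranged 2.57-fold, from 8.85 CPM in G3 1 to 22.7 CPM in G3 PGC1aOE 2. G3 1 had the lowest value of Pdgfrb, Notch3 and Cspg4, and G3 PGC1aOE 3, high for Acta2 and Tagln, was the lowest for Rgs5 and second lowest for Pdgfrb and Cspg4.

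Against the spread of all genes, the contractile members stood near the top and the pericyte members lower. The SD of log2 CPM over the 7 libraries was 1.25 for Acta2, 1.33 for Tagln, 0.75 for Myh11, 1.85 for Cnn1, 0.93 for Actg2 and 0.59 for Smtn. The median over all 12674 tested genes was 0.37, with quartiles of 0.26 and 0.53. Acta2 lay at percentile 98.3 of that distribution, Tagln at 98.6, Cnn1 at 99.6, Actg2 at 95.5, Myh11 at 91.2 and Smtn at 81.2. For the pericyte genes the SD was 0.25 for Rgs5 (percentile 20.7), 0.41 for Pdgfrb (58.1), 0.47 for Cspg4 (67.4) and 0.49 for Notch3 (70.8). These percentiles are a description of 7 libraries, and the spread of Cnn1 and Actg2 also contains counting error. In bulk tissue, fewer cells of a type and less RNA per cell cannot be told apart.

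**Figure D2:**
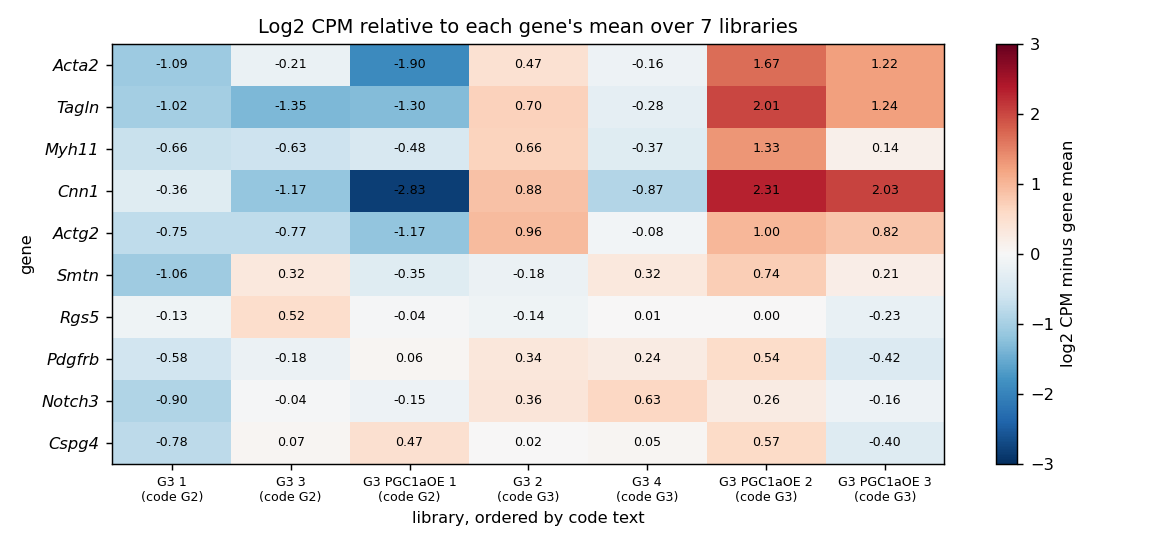
Log2 CPM of each member minus its mean over the 7 libraries, with libraries ordered by the text in the sample code and red for values above the mean. Acta2, Tagln, Myh11, Cnn1 and Actg2 are blue in all 3 libraries coded G2 and red in G3 2, G3 PGC1aOE 2 and G3 PGC1aOE 3, while Rgs5 stays within 0.52 of its mean.

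Between the labelled groups no member passed the test. The 6 contractile genes all had positive log2 fold changes (the libraries labelled G3 PGC1aOE minus G3), with a median of 0.88, while 2 of the 4 pericyte genes were positive and 2 negative, with a median of −0.0031, beside 0.0076 over all tested genes. Acta2 had a mean of 166 CPM (SD 129, n = 3) in the libraries labelled G3 PGC1aOE and of 77.7 CPM (SD 32.3, n = 4) in G3. Its log2 fold change was 1.10 (SE 0.69, 95% interval −0.48 to 2.67). Tagln had a mean of 105 CPM (SD 84.1, n = 3) and of 38.6 CPM (SD 26.0, n = 4); its log2 fold change was 1.44 (SE 0.74, 95% interval −0.27 to 3.15). For Cnn1 the log2 fold change was 1.81 (SE 0.99), for Myh11 0.67 (SE 0.45), for Actg2 0.52 (SE 0.69) and for Smtn 0.32 (SE 0.37). Every interval included 0.

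Rgs5 had a mean of 317 CPM (SD 26.7, n = 3) and of 359 CPM (SD 84.7, n = 4); its log2 fold change was −0.18 (SE 0.26, 95% interval −0.75 to 0.40). Pdgfrb had 0.12 (SE 0.29), Cspg4 0.40 (SE 0.29) and Notch3 −0.12 (SE 0.32). The interval of each pericyte gene was narrower than that of each contractile gene. Those of Rgs5, Pdgfrb and Notch3 reached neither 1 nor −1, while that of Cspg4 ran from −0.25 to 1.05.

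Adjusted p-values over all 12674 genes ran from 0.847 to 0.939 for the 10 members (edgeR's quasi-likelihood test, Benjamini-Hochberg). Of the members, 0 were called, beside 0% of all tested genes, and 0 had an unadjusted p under 0.05, beside 4.32% of all tested genes in either direction and 3.05% on the higher side. DESeq2 and limma voom also called 0 members, and DESeq2 called 3 of all genes. No member separated the groups without overlap, against 4.58% of all tested genes, 2.19% with the libraries labelled G3 PGC1aOE higher. The exact 2-sided permutation test on log2 CPM gave p-values from 0.286 for Tagln to 0.971 for Notch3, where 35 splits allow 0.0286 at the smallest. The fitted log2 fold changes compare mean counts and so follow the high libraries. Acta2 had 1.10 in the fit but a difference of 0.58 in mean log2 CPM, and Cnn1 had 1.81 but 0.88. Leaving out 1 library moved several of them: Acta2 ran from 0.53 to 1.61, Tagln from 0.73 to 2.00 and Myh11 from −0.0013 to 1.08. Cnn1 ran from 1.27 to 2.49, Smtn from 0.0071 to 0.55 and Actg2 from 0.13 to 0.98, with no value for Actg2 without G3 2, where it did not pass the filter. For these 6 genes the lowest value came without G3 PGC1aOE 2. Among pericyte genes Rgs5 ran from −0.25 to −0.017, Pdgfrb from −0.16 to 0.32, Cspg4 from 0.22 to 0.64 and Notch3 from −0.35 to 0.10. Without G3 4, the G3 library with P in its code, Acta2 had 1.09 and Tagln 1.44.

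The contrast between the 2 classes was taken in each library as the mean log2 CPM of the 6 contractile genes minus that of the 4 pericyte genes, which cancels library size. The contrast is in CPM and not per length, so it is read only between libraries, and its zero has no meaning. It was −1.74, −1.08, −2.25 and −1.99 in G3 1 to 4, beside −2.94, −0.35 and −0.27 in G3 PGC1aOE 1 to 3. The groups overlapped, and the libraries labelled G3 PGC1aOE held both the lowest value and the 2 highest. The contractile mean spanned 2.85 log2 units over the libraries, from 2.91 in G3 PGC1aOE 1 to 5.76 in G3 PGC1aOE 2. The pericyte mean spanned 0.94, from 5.17 in G3 1 to 6.11 in G3 PGC1aOE 2. The contrast averaged −1.19 ± 1.52 (SD, n = 3) against −1.76 ± 0.50 (SD, n = 4), a difference of 0.57 that is smaller than the SD within the libraries labelled G3 PGC1aOE. The difference was 1.45 without G3 PGC1aOE 1, 0.16 without G3 PGC1aOE 2 and 0.12 without G3 PGC1aOE 3. No p is given for it, since the members were chosen with earlier results known. Per length, the ratio of Acta2 to Rgs5 FPKM was 0.0945 in G3 PGC1aOE 1, 1.10 in G3 PGC1aOE 2 and 0.948 in G3 PGC1aOE 3, with G3 between 0.178 and 0.527. Its highest library was G3 PGC1aOE 2, while that of the class contrast was G3 PGC1aOE 3.

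**Figure D3:**
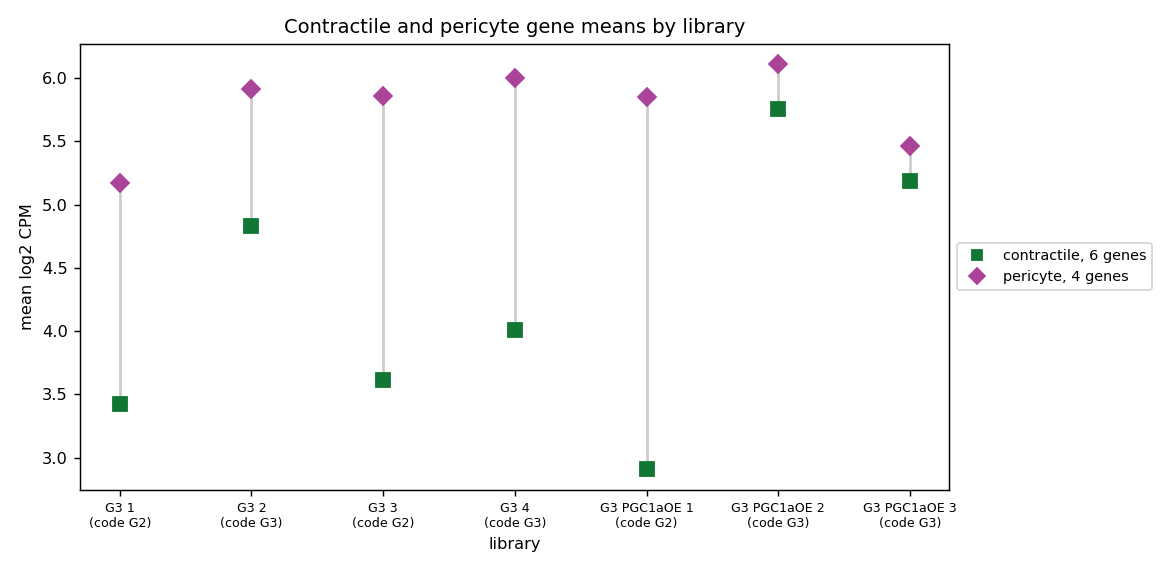
Mean log2 CPM of the contractile genes (green squares) and of the pericyte genes (purple diamonds) in each library, joined by a line. The pericyte means stay between 5.17 and 6.11 while the contractile means run from 2.91 to 5.76, so the length of the line differs between libraries mainly through the squares; the height of squares against diamonds depends on which genes are averaged and on their lengths.

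Within the sample codes the group difference of the class contrast pointed in opposite directions. Among libraries coded G2 the contrast was lower by 0.95 in the 1 library labelled G3 PGC1aOE than in the 2 labelled G3 (a difference of −0.95), and among libraries coded G3 it differed by 1.22, with 2 libraries on each side. For code numbers below 80 the difference was −1.25, with 1 library labelled G3 PGC1aOE against 3, and for numbers of 80 and above it was 1.68, with 2 against 1. Of the 6 contractile genes, Acta2, Cnn1, Tagln and Actg2 also had opposite signs by code text, and Myh11 and Smtn did not. Acta2 had a difference in log2 CPM of −1.25 among libraries coded G2 and 1.30 among those coded G3. By code number it was −1.63 below 80 and 1.61 at 80 and above. For Cnn1 the values were −2.07 and 2.17 by code text. Tagln had −0.11 and 1.41, and Actg2 −0.41 and 0.47. Myh11 was positive in both code texts, at 0.16 and 0.58, as was Smtn, at 0.016 and 0.41. By code number these genes also had opposite signs. Myh11 had −0.27 below 80 and 1.10 at 80 and above, and Smtn −0.048 and 0.16. Among pericyte genes Rgs5 had −0.23 and −0.050 and Cspg4 0.83 and 0.054, while Pdgfrb, at 0.44 and −0.22, and Notch3, at 0.32 and −0.45, had opposite signs in the reverse order. An interaction term between group and code text, fitted across all genes, gave 2.61 (SE 0.61) for Acta2 and 4.64 (SE 1.19) for Cnn1 on the log2 scale, and no member passed (edgeR, smallest adjusted p = 1.00 after rounding). It was called for 0% of all tested genes, with 3.79% at an unadjusted p under 0.05, and Acta2, Cnn1 and Tagln were among the latter.

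The text of the code went with the contractile genes more closely than the group label did, a comparison made after these values were seen. All libraries coded G3 had higher code numbers than those coded G2, so text and number order cannot be told apart. Acta2 had a mean of 168 CPM (SD 87.9, n = 4) in libraries coded G3 and of 45.9 CPM (SD 26.3, n = 3) in those coded G2. In the fit with group and code text as terms its log2 difference was 1.67 with an SE of 0.61. Tagln had a mean of 102 CPM (SD 63.3, n = 4) and of 19.8 CPM (SD 2.53, n = 3), a log2 difference of 2.04 (SE 0.41, 95% interval 1.11 to 2.97). Myh11 had 1.06 (SE 0.34), Actg2 1.98 (SE 0.54), Cnn1 2.33 (SE 0.98) and Smtn 0.52 (SE 0.34). The median over the contractile genes was 1.82, beside −0.010 over all tested genes. Among pericyte genes Notch3 had 0.62 (SE 0.26), Pdgfrb 0.42 (SE 0.26), Cspg4 0.066 (SE 0.29) and Rgs5 −0.21 (SE 0.23), with a median of 0.24. With 1 library left out the difference by code text ran from 0.77 (without G3 PGC1aOE 1) to 2.21 for Acta2, from 1.03 (also without G3 PGC1aOE 1) to 3.21 for Cnn1, from 1.48 to 2.43 for Tagln, from 0.80 to 1.32 for Myh11, from 1.60 to 2.31 for Actg2 and from 0.28 (without G3 1) to 1.00 for Smtn.

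No member passed the adjusted threshold in the contrast by code text either. The smallest adjusted p was 0.0712, for Tagln, followed by 0.109 for Actg2 and 0.143 for Myh11 (edgeR). Of all tested genes 0.331% were called, 0.0868% as higher and 0.245% as lower in libraries coded G3. An unadjusted p under 0.05 was reached by 6 members, all higher in libraries coded G3 (Acta2, Tagln, Myh11, Cnn1, Actg2 and Notch3), beside 19.9% of all tested genes in either direction, 9.99% on the higher and 9.86% on the lower side. Acta2, Tagln, Myh11 and Actg2 did not overlap between the codes, all 4 being higher in libraries coded G3. This held for 22.2% of all tested genes, 10.8% on the higher side, so separation by code text was common in these libraries. For all 4 genes G3 4 was the lowest library coded G3. Against the highest library coded G2 it had 76.8 to 74.5 CPM of Acta2, 30.4 to 28.1 CPM of Myh11 and 38.2 to 22.7 CPM of Tagln. For Actg2 it had 9 counts against 4. Tagln had an adjusted p of 0.0181 without G3 4, within a range from 0.0181 to 0.537 over the alternatives, and no gene of the whole table was called without G3 PGC1aOE 1 or without G3 PGC1aOE 3. Within G3 alone the log2 CPM of Acta2 differed by 0.80 between the codes and that of Tagln by 1.40, with 2 libraries on each side. Within the libraries labelled G3 PGC1aOE the differences were 3.35 and 2.92, with 1 library coded G2. Ppargc1a also separated by code text, with a mean of 105 CPM (SD 12.0, n = 3) in libraries coded G2 and of 61.4 CPM (SD 18.0, n = 4) in those coded G3 (log2 difference −0.75, adjusted p = 0.129). Its part in the result was not tested.

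**Figure D4:**
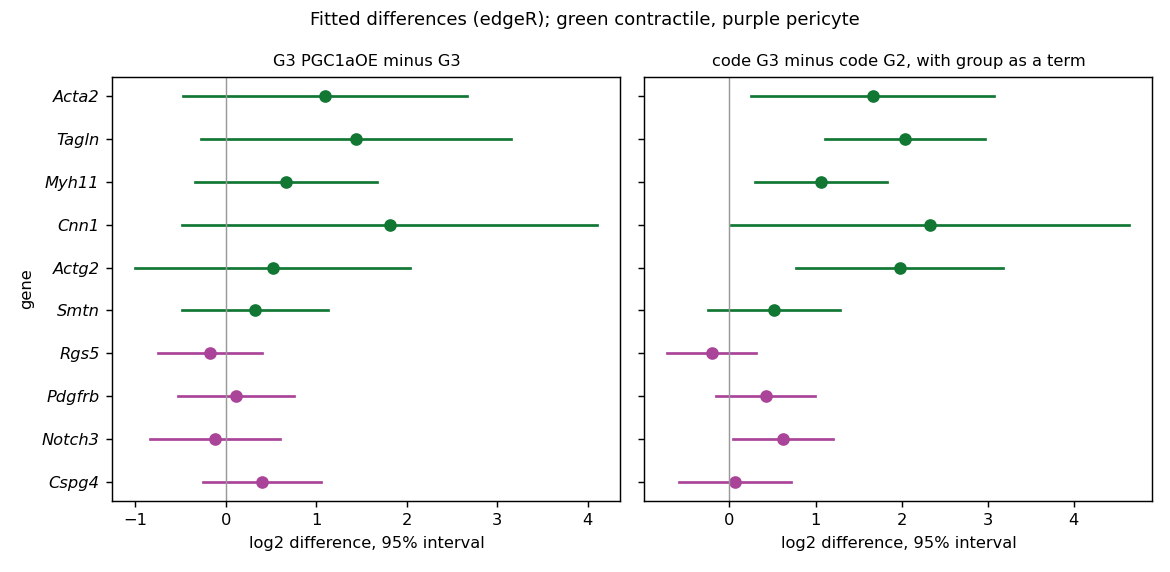
Fitted log2 differences with 95% intervals for the 10 members, by labelled group (left) and by the text of the sample code with group as a term (right). All intervals include 0 on the left, and on the right those of Acta2, Tagln, Myh11, Cnn1, Actg2 and Notch3 lie above 0 before adjustment over all genes.

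Other genes of the contractile apparatus were followed as a list of 22, all tested. By group, 18 had positive log2 fold changes and 4 negative ones, with a median of 0.51 (0.20 without G3 PGC1aOE 2, 0.34 without G3 3 and 0.77 without G3 PGC1aOE 1), and 0 were called. By group, an unadjusted p under 0.05 (edgeR) was reached by 5 on the higher and 1 on the lower side, beside 3.05% and 1.27% of all tested genes. Between the groups 2 of the 22 did not overlap, beside 4.58% of all tested genes. The smallest p-values were those of Myl6, a myosin light chain shared by smooth muscle and non-muscle cells, at 1.08 (SE 0.37), and of Tagln2, a transgelin paralog, at 0.83 (SE 0.33). On the negative side stood the actin-binding gene Synpo2 at −0.49 (SE 0.22) and Vcl, which encodes vinculin, at −0.68 (SE 0.47). All 4 had an adjusted p of 0.847. By code text 18 of the 22 were positive, with a median of 0.79, and 0 were called. Myl9, the regulatory light chain of smooth muscle myosin, had a mean of 68.9 CPM (SD 39.2, n = 4) in libraries coded G3 and of 16.3 CPM (SD 2.42, n = 3) in those coded G2, a log2 difference of 1.81 (SE 0.36, adjusted p = 0.0660). Ppp1r14a, which encodes an inhibitor of myosin phosphatase, had 1.52 (SE 0.32, adjusted p = 0.0708). Cald1 and Ppp1r12a lay on the other side at −0.37 and −0.38. By code text, 14 of the 22 did not overlap, beside 22.2% of all tested genes. An unadjusted p under 0.05 (edgeR) was reached by 13, all higher in libraries coded G3, beside 9.99% of all tested genes on the higher side.

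Regulators of the smooth muscle program did not share that direction. Of 18 symbols, 16 were listed and 15 tested, with Foxf1 below the filter and Mkl1 and Mkl2 being older names of Mrtfa and Mrtfb. By group 6 were positive and 9 negative, with a median of −0.061 (−0.38 without G3 PGC1aOE 1), and 0 were called. Srf, which encodes serum response factor, had a mean of 72.7 CPM (SD 11.5, n = 3) and of 104 CPM (SD 16.6, n = 4), with a fitted log2 change of −0.52 (SE 0.23, adjusted p = 0.847), and Gata6 had −0.56 (SE 0.28). Tgfb1, a growth factor that favours the contractile state, had 0.55 (SE 0.41) and Klf4, a repressor of contractile genes, 0.18 (SE 0.38). By code text the median was −0.24 and 0 were called. Of the 15 tested, 8 did not overlap between the codes, beside 22.2% of all tested genes. An unadjusted p under 0.05 (edgeR) was reached by 2 on the higher and 4 on the lower side, beside 9.99% and 9.86% of all tested genes. Tgfb1 had 1.21 (SE 0.22, adjusted p = 0.0518) and Klf4 1.01 (SE 0.23, adjusted p = 0.0815). Tead1 and Mrtfb had −1.06 and −0.66.

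Of 26 further pericyte and mural genes, 24 were tested, and Foxd1 and Atp13a5 were below the filter. By group 17 were positive and 7 negative, with a median of 0.19 (0.050 without G3 PGC1aOE 2 and 0.36 without G3 4), and 0 were called. Higd1b, a marker of pericytes, had a mean of 9.15 CPM (SD 5.69, n = 3) and of 4.96 CPM (SD 1.27, n = 4), with a fitted log2 change of 0.88 (SE 0.40), and Cd248, endosialin, had 0.87 (SE 0.45). Ednra, the endothelin A receptor, had −0.58 (SE 0.24) and Abcc9, a subunit of the pericyte potassium channel that cardiomyocytes also express, −0.50 (SE 0.39). By code text the median was 0.39 and 0 were called, with Ndufa4l2 at 1.18 (SE 0.26) and Anpep at 0.78 (SE 0.20) and, on the other side, Steap4 at −0.52 and Tbx18 at −0.42. By code text 6 of the 24 tested genes did not overlap, a share near the 22.2% of all tested genes. An unadjusted p under 0.05 (edgeR) was reached by 8, all higher in libraries coded G3, beside 9.99% of all tested genes on the higher side.

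The 21 genes of PDGF and Notch signalling were all tested, and 0 were called by group (17 positive, 4 negative, median 0.23; 0.061 without G3 PGC1aOE 2, 0.12 without G3 3). Hey1, a Notch target, had 0.67 (SE 0.32) and the ligand gene Dll1 0.81 (SE 0.56), while the coactivator gene Maml1 had −0.36 and Pdgfa −0.21. By code text 14 were positive with a median of 0.70, and 12 of the 21 had an unadjusted p under 0.05, beside 19.9% of all tested genes. All 12 were higher in libraries coded G3, beside 9.99% of all tested genes on that side. Of the 21, 7 did not overlap between the codes, beside 22.2% of all tested genes. Of the list, 1 gene was called higher, beside 0.0868% of all tested genes: Dll1, with a mean of 7.44 CPM (SD 1.81, n = 4) in libraries coded G3 and of 1.97 CPM (SD 0.442, n = 3) in those coded G2, a log2 difference of 1.81 (SE 0.25, adjusted p = 0.0280). That call was lost without G3 PGC1aOE 1 or G3 PGC1aOE 3, where no gene of the table was called. Notch1 had 0.93 (SE 0.19, adjusted p = 0.0660), and Rbpj and Pdgfra had −0.47 and −0.42. Genes linked to the synthetic, less contractile state of smooth muscle numbered 13, of which 12 were tested and Tnfrsf11b was not. By group 10 were positive and 2 negative, with a median of 0.57 (0.99 without G3 1 and 0.38 without G3 3), and 0 were called. Vim, vimentin, which fibroblasts and endothelium express as well, had 1.31 (SE 0.37) and S100a4 1.16 (SE 0.50), with Cdh2 at −0.28 and Myh10 at −0.29. By code text the median was 0.30 and 0 were called. S100a4 had 1.12 (SE 0.46) and Vim 0.76 (SE 0.32), and on the other side Col8a1 had −1.45 (SE 0.38) and Cdh2 −0.76 (SE 0.23). An unadjusted p under 0.05 (edgeR) was reached by 2 of the 12 on the higher and 3 on the lower side, beside 9.99% and 9.86% of all tested genes. Of the 12, 2 did not overlap between the codes, beside 22.2% of all tested genes.

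Markers of other cell types were summed in CPM beside these results. Cardiomyocyte markers (5 of 5 listed) lay between 34959 and 50854 in G3 and between 38465 and 54954 in the libraries labelled G3 PGC1aOE. Endothelial markers (5 of 5) lay between 396 and 549 in G3 and between 403 and 701 in the other group. Their sums did not overlap by code text, at 396 to 462 in libraries coded G2 and 511 to 701 in those coded G3. Singly, 2 of the 5 did not overlap, beside 22.2% of all tested genes. Fibroblast markers (5 of 5) lay between 429 and 903 in G3 and between 782 and 1225 in the other group. Singly, 2 of these 5 did not overlap between the groups, beside 4.58% of all tested genes. An unadjusted p under 0.05 (edgeR) was reached by 2, both higher in the libraries labelled G3 PGC1aOE, beside 3.05% of all tested genes on that side. Activated fibroblast markers (4 of 4) lay between 14.7 and 246 in G3 and between 71.9 and 232 in the other group. They were highest in G3 1 and G3 PGC1aOE 1, where Acta2 was lowest. Acta2 and Tagln are expressed by activated fibroblasts too. Atrial markers (3 of 3) ranged from 1.80 to 326 in G3 and from 2.41 to 1042 in the other group, with 1042 in G3 PGC1aOE 3, 326 in G3 2 and 20.1 in G3 PGC1aOE 2, the library with the most Acta2. Schwann cell markers (3 of 3) lay between 4.31 and 6.66 in G3 and between 8.91 and 16.9 in the other group, without overlap. Singly, the 2 that were tested did not overlap between the groups, beside 4.58% of all tested genes. Macrophage markers (3 of 3) lay between 35.4 and 76.7 and between 63.2 and 77.0. Epicardial markers (3 of 3) lay between 6.13 and 13.9 and between 5.67 and 22.6, skeletal muscle markers (3 of 3) between 0.448 and 3.69 and between 0.466 and 4.22, and erythroid markers (2 of 3 symbols listed) between 14.1 and 205 and between 35.7 and 145. By code text the 3 epicardial markers were all higher in libraries coded G3, with a median log2 difference of 2.23. The 3 atrial markers were all higher too, with a median of 2.09, beside the median of 1.82 over the contractile genes. An unadjusted p under 0.05 (edgeR) was reached by 2 epicardial and 0 atrial markers, beside 9.99% of all tested genes on the higher side. The sums of both lists overlapped between the codes, at 5.67 to 6.91 and 6.13 to 22.6 for epicardial and at 1.88 to 225 and 1.80 to 1042 for atrial markers. Alas2 of the erythroid list was called lower in libraries coded G3 (log2 difference −2.92, edgeR adjusted p = 0.0280), beside 0.245% of all tested genes. Like that of Dll1, this call was lost without G3 PGC1aOE 1 or G3 PGC1aOE 3. No listed marker was at 0 in all libraries. The part of these cells in the results was not tested.

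The 10127 genes whose log2 CPM averaged 2 or more were ranked by how closely their centred log2 CPM over the 7 libraries followed Acta2. The nearest 5 were G0s2, Cys1, Cfp, Slc9a3r2 and Tppp3, at a root mean square difference of 0.47 to 0.52 log2 units. On the same measure Actg2 stood at 0.51 and Tagln at 0.52, Myh11 at 0.73, Cnn1 at 0.76 and Smtn at 0.86, while the 4 pericyte genes stood between 1.05 for Notch3 and 1.21 for Rgs5. The nearest to Rgs5 were Plekha5, Unc45b, Rbm28, Exd2 and Psg16, at 0.056 to 0.089. The other 3 pericyte genes stood between 0.42 and 0.48. Among the 10127 genes they would rank 6125 (Cspg4), 6315 (Pdgfrb) and 7286 (Notch3) from Rgs5, so Rgs5 was not close to its own class. Ranked from Acta2, Actg2 and Tagln would each stand at 5, Myh11 at 220, Cnn1 at 309 and Smtn at 788. A flat profile lies near many others, so a small difference for Rgs5 says less than the same value would for Acta2.

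Reads shared with other genes touch some members. Exact 36-base windows of the longest protein-coding transcript (GENCODE M21) were shared with other genes for 1.05% of Acta2 windows, 0.539% for Actg2, 54 of 6514 windows for Myh11 (shared with Myh9, Myh10 and Myh14) and 0% for Cnn1, Cspg4 and Pdgfrb. The Acta2 windows were shared with Actg1, Actg-ps1, Gm12715 and Gm16385. Actg1 ran from 154 CPM in G3 1 to 419 CPM in G3 PGC1aOE 3, where Acta2 had 40.3 and 201 CPM. Cardiac actin, Actc1, shared 0.231% of the windows of Actg2. It ran from 3420 to 8956 CPM and was highest in G3 4, where Actg2 had 9 counts. How many reads of Acta2 or Actg2 come from these genes was not tested. For Tagln 52.4% of windows were shared, since its exons overlap those of Gm48529 on the opposite strand over 877 of their 1595 bases and those of Pcsk7 over 94. The library kit does not mark strand, so reads of Tagln and of these genes cannot be told apart. Smtn likewise overlaps Gm11946 over 14.3% of its exon bases and Notch3 overlaps Gm17276 over 6.09%.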

How the data were processed

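RNA of left ventricle was sequenced from 7 samples, 4 labelled G3 and 3 labelled G3 PGC1aOE, grouped by their titles. Per the labels' protocols, Trizol RNA from flash-frozen hearts went into Illumina TruSeq RNA libraries. The authors deposited whole-number read counts per Ensembl gene, without normalization, and FPKM. Dividing deposited counts by their column total and by 1 length per gene gave the deposited FPKM, with that length constant within 0.00228 bp. Tools named per the submitters' processing notes are Bowtie 0.12.2 and CASAVA, with build mm9; for the counting program, annotation and strand setting, the sources used here give nothing. Symbols matched 21748 of 22027 identifiers.

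Counts were filtered with filterByExpr, scaled by TMM and tested with edgeR 4.0.16 under R 4.3.3 (robust quasi-likelihood F-test, 2-sided, group as the only term, Benjamini-Hochberg over 12674 genes at 0.05). CPM uses TMM-scaled totals, and log2 CPM a prior count of 2. The fit was tested on simulated data. Totals of 10106705 to 16056740 counts limit precision for members with few reads. Alternatives were upper quartile and RLE scaling, a pair of further filters, DESeq2 1.42.0, limma 3.58.1 voom, limma on log2 FPKM, covariates for the sample code, a replicate block, removal of mitochondrially encoded genes, and each library left out. The contrast by code text, its interaction with group, and the class contrast without Cnn1 and Actg2 were chosen after seeing the data. Members and lists were chosen with earlier results of these data known. Named genes are the 10 members, the 2 genes of smallest p on each side of each wider list, actin paralogs, the 5 nearest profiles of Acta2 and of Rgs5, and Ppargc1a; overlapping and window-sharing genes were named after the search.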

Additional observations from a re-analysis of the deposited data

Results flagged for a closer look

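Cspg4 was far lower in G3 1 than in the other 3 libraries labelled G3: 8.85 CPM against 15.4 to 16.0 CPM. The gap of G3 1 to its nearest neighbour took 0.943 of the whole range on the log2 CPM scale, above the 95% critical value of Dixon's test for 4 samples. The pericyte mean was low in the same library, at 5.17 log2 CPM against 5.86 to 6.00, with a gap of 0.834 of the range. That mean includes Cspg4, so its flag is not separate from that of Cspg4. Of 13 values examined in this way, chance flags about 1 in 20.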

How the results depend on the processing

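No member was called under any of the alternatives for the group contrast, and the difference in class contrast (0.57) ran from 0.13 with the code number as a covariate to 0.63 with the filter at a mean CPM of 1, which removed Actg2; it was 0.59 without Cnn1 and Actg2, and 0.12 to 1.45 with each library left out. Signs turned for Pdgfrb with limma on log2(FPKM + 1) and log2(FPKM + 0.1) (−0.0031 and −0.0071), for Notch3 with the replicate block (0.17), and for Acta2 and Actg2 with the code number covariate (−0.11 and −0.058). With a library left out Pdgfrb ran from −0.16 to 0.32, Notch3 from −0.35 to 0.10, Myh11 from −0.0013 to 1.08, the smooth muscle regulator median from −0.38 to −0.0064, and the difference of Cspg4 by code text from −0.17 to 0.33. Over all genes DESeq2 called 3, the replicate block 6 and the main fit 0. By code text 42 genes were called, 72 with no group term and 0 to 177 with a library left out, with 0 to 1 members. The deviations of same-numbered libraries from their group means correlated at 0.46, 0.12 and −0.086 for replicate numbers 1, 2 and 3. Libraries numbered 1 were both coded G2 and those numbered 2 both coded G3, while those numbered 3 differed in code text. Differently numbered libraries were not compared in this way, so whether the numbers pair the samples was not tested. Depth limits Cnn1 and Actg2 most, with as few as 3 counts in a library.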
